A study of Homo sapiens with 36 samples.

Results

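TET1 peaks were described over 7.5 Mb of the short arm of chromosome 6, from 26 to 33.5 Mb on hg19, which holds the main histone gene clusters and the major histocompatibility complex (MHC). A peak was a member when its summit fell in this region. The 6 deposited lists held 232 such peaks of 62066 in all: 106 of 28450 in siNC, 122 of 32749 in siCHD5, 2 of 358 in siMBD2, 2 of 259 in siMBD3, 0 of 140 in siCHD3 and 0 of 110 in siCHD4. Members were placed in 3 bins. The histone clusters took in 26 to 26.3 Mb and 27.7 to 27.9 Mb (0.5 Mb together). The stretch between took in 26.3 to 27.7 Mb and 27.9 to 29.6 Mb (3.1 Mb). The MHC ran from 29.6 to 33.4 Mb (3.8 Mb). The last 0.1 Mb of the region lay in no bin and held 0 peaks in every list. The remaining 163.6 Mb of chromosome 6 served as the comparison.

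Chromatin immunoprecipitation with an antibody to TET1 was carried out in HEK293T, a human embryonic kidney cell line, after transfection with a single siRNA: siNC, taken as the control, or siCHD3, siCHD4, siCHD5, siMBD2 or siMBD3. The 5 siRNAs other than siNC are named for subunits of the NuRD complex, the CHD remodelling ATPases and the MBD methyl-CpG-binding domain proteins. The labels name 3 pull-down and 3 input libraries for each siRNA, and each siRNA has 1 peak list, taken as called on the pooled replicates. There was therefore no replicate error, no difference between lists could be tested, and the intervals given below cover counting error only. All groups share the same cell line, and the levels of the targeted proteins and of TET1 were not analysed here.

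TET1 is a dioxygenase that oxidises methylated cytosine and is found mostly at CpG-rich DNA. Replication-dependent histone genes stand in dense clusters, are short, lack introns and are transcribed in S phase. The MHC is ordered in 3 classes: class I and class II carry the HLA genes, whose products present peptides to T cells, and class III between them carries complement and many other genes. Its HLA genes are among the most variable of the genome. Between histone clusters and MHC stand transfer RNA genes, zinc finger genes and olfactory receptor genes. By gene order in the RefSeq table (GRCh38.p14, whose coordinates were not used), the histone clusters held 48 histone genes among 49 protein-coding genes. The stretch between held 136 tRNA genes, 14 zinc finger genes, 16 olfactory receptor genes and 5 further histone genes among 55 protein-coding genes. The MHC held 145 protein-coding genes, of which 19 were HLA genes: 50 in class I, 59 in class III and 36 in class II with its extension.

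Promoters of 3 gene groups were compared, and 1 RefSeq promoter of each is printed as an example of its CG number. Each is the 250 bases before the gene start, 5′ to 3′ in the direction of transcription (GRCh38.p14, chromosome 6), with every CG dinucleotide in capitals. H2AC16 (plus strand) is a histone gene, OR11A1 (minus strand) an olfactory receptor gene and HSPA1L (minus strand) a class III gene of the heat shock family. Each has the CG number nearest to the median of its group.
H2AC16: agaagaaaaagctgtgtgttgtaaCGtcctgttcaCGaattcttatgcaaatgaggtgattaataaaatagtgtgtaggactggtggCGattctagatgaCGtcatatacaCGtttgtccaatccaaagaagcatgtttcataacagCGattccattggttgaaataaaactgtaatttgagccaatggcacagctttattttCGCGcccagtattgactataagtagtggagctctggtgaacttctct
OR11A1: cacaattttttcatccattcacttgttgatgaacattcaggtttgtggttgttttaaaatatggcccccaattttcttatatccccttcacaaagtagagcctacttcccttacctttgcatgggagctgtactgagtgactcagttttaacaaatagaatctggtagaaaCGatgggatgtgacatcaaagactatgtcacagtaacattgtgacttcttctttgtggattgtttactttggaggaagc
HSPA1L: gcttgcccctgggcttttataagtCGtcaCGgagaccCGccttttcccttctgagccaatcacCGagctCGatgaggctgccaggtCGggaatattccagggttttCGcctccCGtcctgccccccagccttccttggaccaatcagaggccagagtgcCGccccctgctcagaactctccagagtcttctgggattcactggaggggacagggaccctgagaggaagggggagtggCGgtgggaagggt

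The median CG number was 8 for the histone genes (44 of 48 matched to the promoter table), 1 for the olfactory receptor genes (14 of 16) and 10 for the class III genes (53 of 59), against 17 for all 15843 promoters of protein-coding genes. The CG quartiles were 5 and 11 for the histone genes and 4 and 16 for the class III genes, so these groups overlapped. The letters CCAAT, searched on both strands, stood in 84.1% of the histone promoters and in 33% of all 27305 promoters in the table. The letters TATAAA, also searched on both strands, stood in 63.6% and 11.1%. CCAAT and TATAAA stood in 28.6% and 35.7% of the olfactory receptor promoters and in 35.8% and 20.8% of the class III promoters. Each printed promoter holds CCAAT, and of them only HSPA1L holds TATAAA. No genome of the peaks' build was used, so the bases under the peaks were not read, and which peaks lie on these promoters was not analysed here.

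The histone clusters were dense in peaks, and the cluster at 26 to 26.3 Mb held the most crowded windows of 0.1 Mb on chromosome 6. Both clusters together had 40 siNC peaks and 40 siCHD5 peaks, 80.0 per Mb in each list (95% Poisson interval 57.2 to 108.9). The rest of chromosome 6 held 1559 siNC peaks (9.53 per Mb) and 1721 siCHD5 peaks (10.5 per Mb). The density in the clusters was thus 8.40 times that of the rest in siNC (95% interval of the ratio 5.97 to 11.5). In siCHD5 it was 7.61 times (5.41 to 10.4). These counts take each summit on its own, also where several share 1 peak interval. By distinct peak intervals the clusters had 33 in siNC (66 per Mb) and 30 in siCHD5 (60 per Mb). Counted so, the ratio to the rest was lower, 6.998 in siNC (4.80 to 9.87) and 5.78 in siCHD5 (3.89 to 8.28). Of 171 windows of 1 Mb on the chromosome, the window from 26 to 27 Mb had the most peaks in both lists, 40 in siNC and 50 in siCHD5. That window also took in part of the stretch between. Of 1711 windows of 0.1 Mb, 26.1 to 26.2 Mb ranked highest with 12 siNC and 14 siCHD5 peaks, and 26 to 26.1 Mb came next with 11 and 13. The windows of the other cluster, at 27.7 to 27.8 Mb and 27.8 to 27.9 Mb, ranked 5 and 23 in siNC and 9 and 490 in siCHD5. Among peaks with a −log10 q of 10 or more the ratio was 3.18 in siNC (1.58 to 5.72) and 4.50 in siCHD5 (2.66 to 7.13), lower than over all peaks.

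The first histone cluster had more peaks per Mb than the other. At 26 to 26.3 Mb siNC had 29 peaks (96.7 per Mb, 64.7 to 138.8) and siCHD5 had 33 (110.0 per Mb, 75.7 to 154.5). At 27.7 to 27.9 Mb siNC had 11 peaks (55.0 per Mb, 27.5 to 98.4) and siCHD5 had 7 (35.0 per Mb, 14.1 to 72.1). By summit count, the Poisson intervals of the 2 clusters overlapped in siNC and did not in siCHD5. Several summits can share 1 distinct peak interval, and the Poisson intervals count each on its own. By distinct peak intervals the first cluster had 24 in siNC (80.0 per Mb) and 23 in siCHD5 (76.7 per Mb). The other had 9 (45.0 per Mb) and 7 (35.0 per Mb). Poisson intervals were not computed for these counts, so a separation by them was not tested. siNC folds in the first cluster ran from 2.45 to 9.56. The other cluster had fewer peaks and higher folds, with a median of 6.39 against 4.04 in siNC and of 8.69 against 4.43 in siCHD5. Fold is the authors' enrichment of pull-down over local control at the summit, and it describes a peak within its own list. Folds of both lists at a site are given side by side as values, and their differences were not tested.

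**Figure D1:**
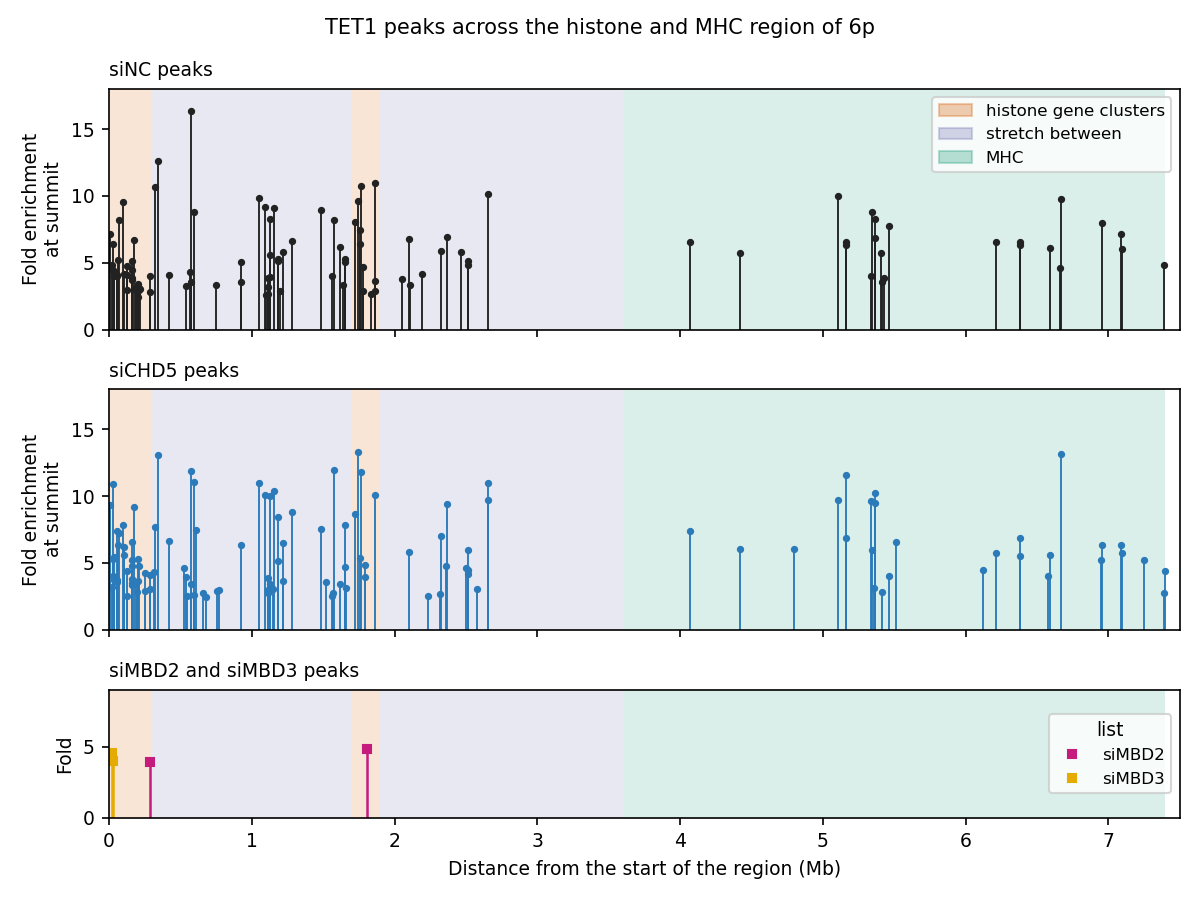
Each stem is a TET1 peak summit, with its distance from the start of the region in Mb on the x axis and its fold enrichment in its own list on the y axis, for siNC, siCHD5 and the 2 lists siMBD2 and siMBD3; shading marks the 3 bins. Peaks crowd in the histone clusters of siNC (40 peaks) and siCHD5 (40 peaks), are sparse in the MHC (23 and 28), and the 4 siMBD2 and siMBD3 peaks all lie in the histone clusters.

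The strongest siNC peak of the clusters lay at 27863292 to 27863593, with 10.9-fold enrichment, where siCHD5 had a 10.1-fold peak. It was followed by 27763459 to 27763974 (10.8-fold in siNC, 11.8-fold in siCHD5) and by 27739827 to 27740550 (9.64-fold in siNC, 13.3-fold in siCHD5). The highest peaks of the first cluster in siNC were 26097519 to 26097847 (9.56-fold) and 26066189 to 26066488 (8.18-fold), with siCHD5 peaks of 7.85-fold and 7.22-fold. In siCHD5 the interval 26026531 to 26027613 (10.9-fold) and the interval 26003360 to 26003722 (9.32-fold) were among the 5 highest of the clusters, with siNC peaks of 6.43-fold and 7.16-fold at the same places. Each siNC peak named here for its own fold thus had a siCHD5 partner. So did nearly all siNC peaks of high fold on the rest, 381 of 386 in the third fold quartile and 327 of 330 in the highest. Over both clusters together, 27 of 40 siNC peaks (67.5%) and 21 of 40 siCHD5 peaks (52.5%) fell in the lowest fold quartile of their list. On the rest of the chromosome these shares were 29% and 26.3%. Most of these peaks lay in the first cluster, where 22 of 29 siNC and 19 of 33 siCHD5 peaks fell in that quartile. In the other cluster 5 of 11 and 2 of 7 did. There 3 of 11 siNC and 3 of 7 siCHD5 peaks stood in the highest quartile, against 21.2% and 22.8% on the rest.

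Peaks of the histone clusters were wider than those of the rest of the chromosome in siCHD5, and several summits were called in more of them in both lists. The median width of distinct intervals was 352 bp in siNC (95% interval of the median 286 to 441, 33 intervals) and 401 bp in siCHD5 (332 to 525, 30 intervals). On the rest of chromosome 6 it was 297 bp (293 to 300) and 299 bp (294 to 302). In siNC the 2 intervals of the median thus overlapped. Intervals over 500 bp made up 30.3% in siNC and 33.3% in siCHD5, against 3.43% and 3.41% on the rest. Several summits were called in 7 of 33 siNC intervals (21.2%, exact Clopper-Pearson 95% interval 8.98 to 38.9) and 8 of 30 siCHD5 intervals (26.7%, 12.3 to 45.9). On the rest of the chromosome this was the case for 16 of 1543 siNC intervals (1.04%) and 22 of 1699 siCHD5 intervals (1.29%). The stretch between shared part of this in siCHD5, with a median of 358.5 bp (296 to 393), 18.0% of 50 intervals over 500 bp and 3 with several summits. In siNC its median was 295 bp (245 to 349), with 3 of 41 intervals over 500 bp and 2 with several summits. In siCHD5 every wide or multi-summit interval of the clusters lay in the first cluster, and 0 of 7 in the other were over 500 bp or carried several summits. This was not so in siNC, where the other cluster had 4 of 9 intervals over 500 bp and 2 of 9 with several summits. The first cluster had 6 of 24 and 5 of 24 in siNC.

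The 3 widest intervals of the whole region lay in the first cluster in both lists. In siNC they were 26026524 to 26027580 (1057 bp, 2 summits), 26123226 to 26124111 (886 bp, 2 summits) and 26055603 to 26056384 (782 bp, 2 summits). In siCHD5 they were 26055538 to 26056729 (1192 bp, 3 summits), 26026531 to 26027613 (1083 bp, 3 summits) and 26157173 to 26158072 (900 bp, 2 summits). Peaks covered 28.7 bp per kb of the clusters in siNC and 28.8 in siCHD5, against 2.95 and 3.25 on the rest of the chromosome.

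**Figure D2:**
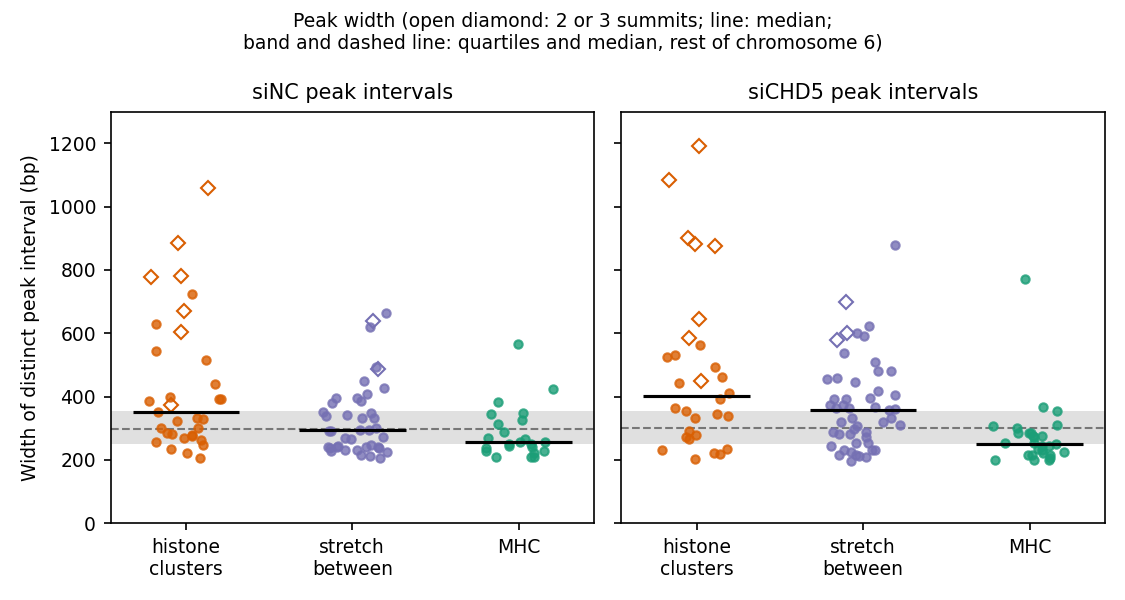
Each point is a distinct peak interval, with its bin on the x axis and its width in bp on the y axis; open diamonds carry 2 or 3 summits, black lines are bin medians, and the grey band with the dashed line gives the quartiles and the median of the rest of chromosome 6. Multi-summit intervals are 7 and 8 in the histone clusters, 2 and 3 in the stretch between and 0 in the MHC, for siNC and siCHD5, and the medians of the clusters are 352 and 401 bp.

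The stretch between clusters and MHC was uneven. It held 43 siNC peaks (13.9 per Mb, 10.0 to 18.7) and 54 siCHD5 peaks (17.4 per Mb, 13.1 to 22.7), 1.46 times (1.05 to 1.97) and 1.66 times (1.24 to 2.17) the density of the rest. The side at 26.3 to 27.7 Mb had 33 siNC peaks (23.6 per Mb) and 41 siCHD5 peaks (29.3 per Mb). The side at 27.9 to 29.6 Mb, next to the MHC, had 10 siNC peaks (5.88 per Mb) and 13 siCHD5 peaks (7.65 per Mb). The higher density of the stretch as a whole was not seen among stronger peaks. With a −log10 q of 10 or more its ratio to the rest turned to 0.933 in siNC and 0.967 in siCHD5. It also turned to 0.828 and 0.929 against the 2 Mb on either side of the region, a comparison chosen after the data were seen. Against the rest of the short arm alone it was 1.12 in siNC (0.802 to 1.53) and 1.28 in siCHD5 (0.952 to 1.69), and both intervals took in 1.

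A dense spot of the stretch lay at 27.1 to 27.2 Mb. This window of 0.1 Mb held 10 peaks in siNC and 10 in siCHD5 and ranked 3 of 1711 in both lists. The strongest siNC peaks of the stretch were 26572853 to 26573232 (16.3-fold), 26341862 to 26342153 (12.6-fold), 26322234 to 26322660 (10.7-fold), 28654277 to 28654609 (10.2-fold) and 27046650 to 27046992 (9.84-fold). siCHD5 had a peak at each, of 11.9-fold, 13.1-fold, 7.69-fold, 9.73-fold and 11.0-fold. Further siCHD5 peaks of high fold lay at 27577054 to 27577448 (12.0-fold) and 26595977 to 26596455 (11.0-fold), with siNC peaks of 8.22-fold and 8.83-fold. The first of these 5 siNC peaks was the strongest of the whole region in siNC.

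The MHC, the longest bin, had the fewest peaks per Mb of the 3 bins. It held 23 siNC peaks (6.05 per Mb, 3.84 to 9.08) and 28 siCHD5 peaks (7.37 per Mb, 4.90 to 10.6). Relative to the rest of chromosome 6 the density was 0.635 times in siNC (0.401 to 0.957) and 0.701 times in siCHD5 (0.464 to 1.02), so the interval reached 1 in siCHD5 only. Against the 2 Mb on either side of the region, which held 16.0 and 17.5 siNC peaks per Mb, the siNC ratio was 0.361 (0.215 to 0.588) and the siCHD5 ratio 0.393 (0.245 to 0.614).

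Class III, cut from the MHC by length as 31.5 to 32.2 Mb, held 0 siNC peaks. A count of 0 allows up to 4.29 peaks per Mb (3 counts in 0.7 Mb), and the exact 95% interval ends at 5.27 per Mb. siCHD5 had 2 peaks there (2.86 per Mb, 0.346 to 10.3), at 31514504 to 31514702 (6.57-fold) and 32122348 to 32122577 (4.47-fold). Class I held 13 siNC and 13 siCHD5 peaks (6.84 per Mb in each), and class II with its extension held 10 (8.33 per Mb) and 13 (10.8 per Mb). Within class I the peaks were gathered at its far end. The 0.1 Mb windows at 31.3 to 31.4 Mb and 31.4 to 31.5 Mb held 4 siNC peaks each, and from 29.6 to 31 Mb siNC had peaks only at 30070924 to 30071159 (6.58-fold) and 30421474 to 30421723 (5.72-fold).

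**Figure D3:**
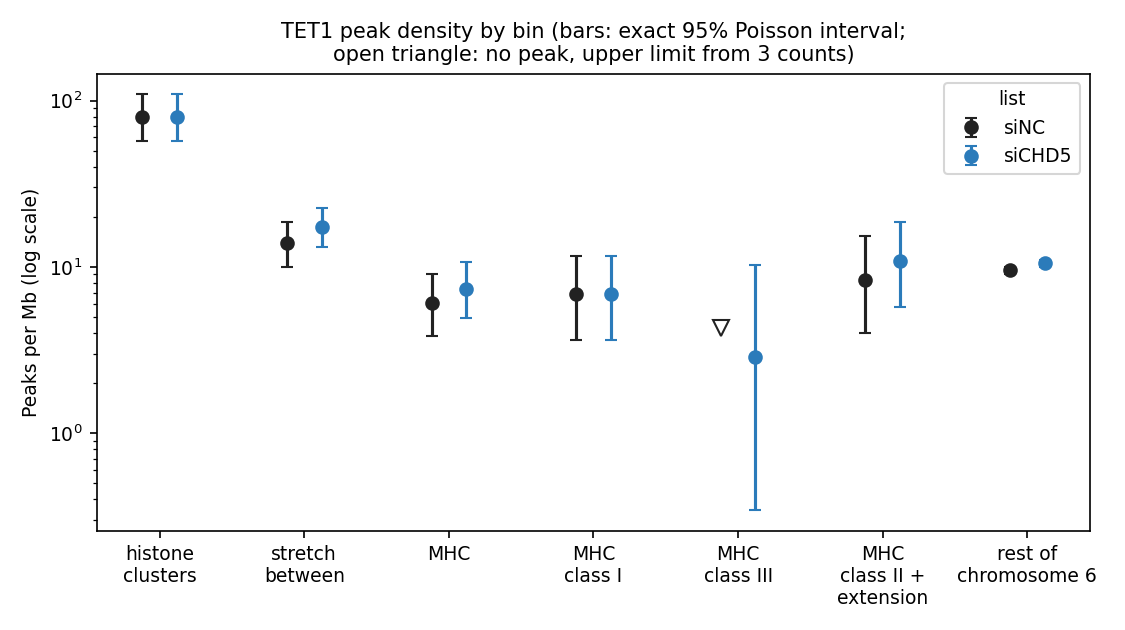
Points give peaks per Mb on a log axis for each bin, the 3 class windows of the MHC and the rest of chromosome 6, in siNC and siCHD5; bars are exact 95% Poisson intervals and the open triangle is the upper limit for siNC in class III, where no peak was called. The histone clusters stand at 80.0 per Mb in both lists, and the MHC at 6.05 and 7.37 lies under the rest of the chromosome at 9.53 and 10.5.

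Peaks of the MHC were single and of middling fold. The median width was 255 bp in siNC (236 to 314) and 251.5 bp in siCHD5 (225 to 284). The siNC interval took in the median of the rest (297 bp), and the siCHD5 interval ended under it (299 bp). No MHC interval carried more than 1 summit. The strongest siNC peaks were 31105253 to 31105521 (10.0-fold), 32668345 to 32668609 (9.79-fold), 31341903 to 31342247 (8.78-fold), 31367393 to 31367959 (8.29-fold) and 32952647 to 32952854 (8.01-fold). siCHD5 had a peak at each, of 9.73-fold, 13.1-fold, 5.97-fold, 9.46-fold and 6.31-fold. siCHD5 also had peaks of 11.6-fold at 31164803 to 31165573, 10.3-fold at 31364679 to 31364985 and 9.62-fold at 31334679 to 31334988, where siNC had 6.29-fold, 6.86-fold and 4.03-fold. The median fold of the bin, 6.58 in siNC and 6.01 in siCHD5, was close to that of the rest (6.39 and 6.79).

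The MHC stood apart in its input signal. From the fold and −log10 p of each summit, its pileup of pull-down reads and its background of control reads were recovered. The lowest control background of a list was 2.5 reads in siNC and 2.80 in siCHD5. By default MACS2 does not let the control fall under a genome-wide average, so a summit at this lowest value had a local control no higher than that. In the MHC 16 of 23 siNC summits (69.6%, 47.1 to 86.8) and 19 of 28 siCHD5 summits (67.9%, 47.6 to 84.1) stood at the lowest value. On the rest of chromosome 6 these were 88 of 1559 (5.64%, 4.55 to 6.91) and 117 of 1721 (6.80%, 5.65 to 8.09). In the histone clusters they were 0 of 40 in both lists, and in the stretch between 2 of 43 and 4 of 54. The 2 Mb after the region had 9 of 35 siNC summits at the lowest value and the 2 Mb before it 0 of 32. Over the whole lists the shares were 18.0% and 21.6%.

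Pull-down pileup in the MHC was low as well. Its median was 22 reads in siNC (quartiles 20 and 27.5) and 23.5 in siCHD5, against 38 and 43 on the rest of chromosome 6. The histone clusters (22.5 and 25 reads) and the stretch between (24 and 24) had similarly low pileups over a higher control, with control medians of 4.26 and 4.84 reads in the clusters. Peaks of the clusters thus combined low pileup with a control near that of the rest, and most peaks of the MHC combined low pileup with the lowest control.

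The hg19 build carries 7 alternative haplotype sequences of this part of chromosome 6, and all 7 held peaks in both lists. siNC had 43 peaks on them, 4 to 10 per sequence, and siCHD5 had 56, 3 to 14 per sequence. These peaks are not members, but they outnumbered the 23 and 28 MHC peaks. Of the haplotype summits 35 of 43 (81.4%, 66.6 to 91.6) in siNC and 50 of 56 (89.3%, 78.1 to 96.0) in siCHD5 stood at the lowest control value, with median pileups of 22 and 23 reads. How reads that match several of these sequences were placed, and the part of that in the density and the control of the MHC, was not tested.

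**Figure D4:**
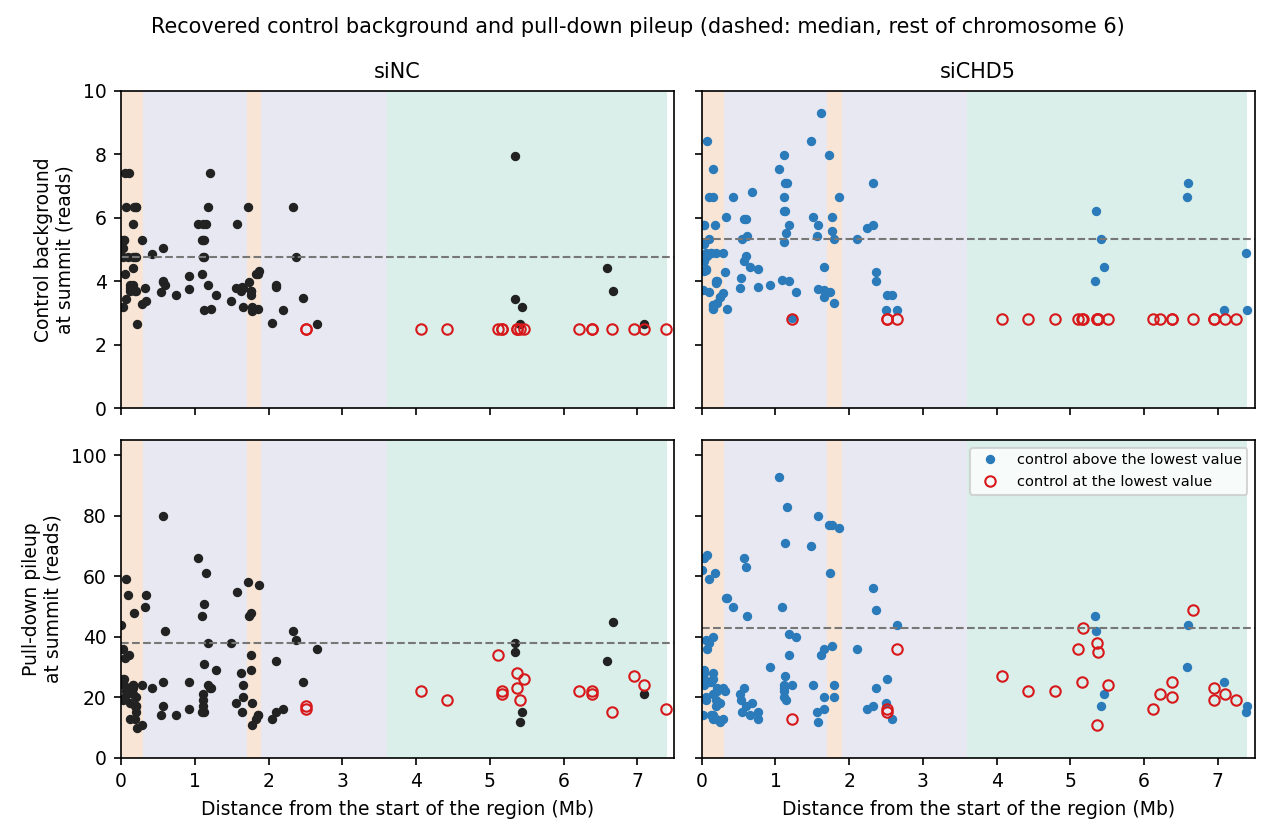
Points are peak summits, with distance from the start of the region in Mb on the x axis and, on the y axes, the control background (upper row) and pull-down pileup (lower row) in reads, for siNC and siCHD5; red open circles are summits at the lowest control value of the list, dashed lines are medians of the rest of chromosome 6, and shading marks the bins as in the map of peaks. Red circles fill most of the MHC (16 of 23 and 19 of 28) and none lies in the histone clusters.

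Sharing between siNC and siCHD5 was next compared by bin. Over the whole lists siCHD5 overlapped 85.4% of siNC peaks by at least 1 bp, and siNC overlapped 74.5% of siCHD5 peaks. In the region 81 of 106 siNC peaks (76.4%, 67.2 to 84.1) and 85 of 122 siCHD5 peaks (69.7%, 60.7 to 77.7) had a partner. By bin the shares of siNC were 77.5% in the histone clusters (31 of 40, 61.5 to 89.2), 72.1% in the stretch between (31 of 43, 56.3 to 84.7) and 82.6% in the MHC (19 of 23, 61.2 to 95), against 84.0% (82.1 to 85.8) on the rest of chromosome 6. The siCHD5 shares were 82.5% (33 of 40), 61.1% (33 of 54) and 67.9% (19 of 28), against 76.2% (74.1 to 78.2). All the siNC intervals reached the value of the rest, while the siCHD5 interval of the stretch between (46.9 to 74.1) ended just under it.

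Sharing differed with fold. In the lowest fold quartile of the siNC list a partner was found for 18 of 27 peaks of the histone clusters (66.7%, 46.0 to 83.5), 7 of 18 of the stretch between (38.9%, 17.3 to 64.3) and 256 of 452 on the rest (56.6%). In the upper 2 quartiles every peak of the histone clusters (8) and of the stretch between (13) had a partner, and 7 of 8 MHC peaks did. On the rest 381 of 386 and 327 of 330 did. In the upper 2 quartiles of siCHD5 all 10 peaks of the clusters and all 7 of the MHC had a siNC partner, as did 7 of 8 and 9 of 10 of the stretch between. In the lowest siCHD5 quartile 14 of 21, 11 of 30 and 2 of 7 peaks of clusters, stretch between and MHC did, against 197 of 452 on the rest, and in siNC 3 of 5 MHC peaks did. Summits of the first histone cluster lay further from their partners, with a median of 51 bp in siNC and 76 bp in siCHD5. In the other cluster the medians were 9.5 and 5 bp. Over both clusters the median distance was 45 bp (quartiles 17 and 98.5) for siNC summits, against 15 bp in the stretch between, 17 bp in the MHC and 10 bp (4 and 17) on the rest. With summits required to lie within 100 bp, the share of the histone clusters was 57.5% in both lists (40.9 to 73.0). That interval ended under the shares of the rest by the same rule, 82.7% in siNC and 74.9% in siCHD5. Summits that share a peak interval were counted separately by this rule, and its shares were not split by fold.

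**Figure D5:**
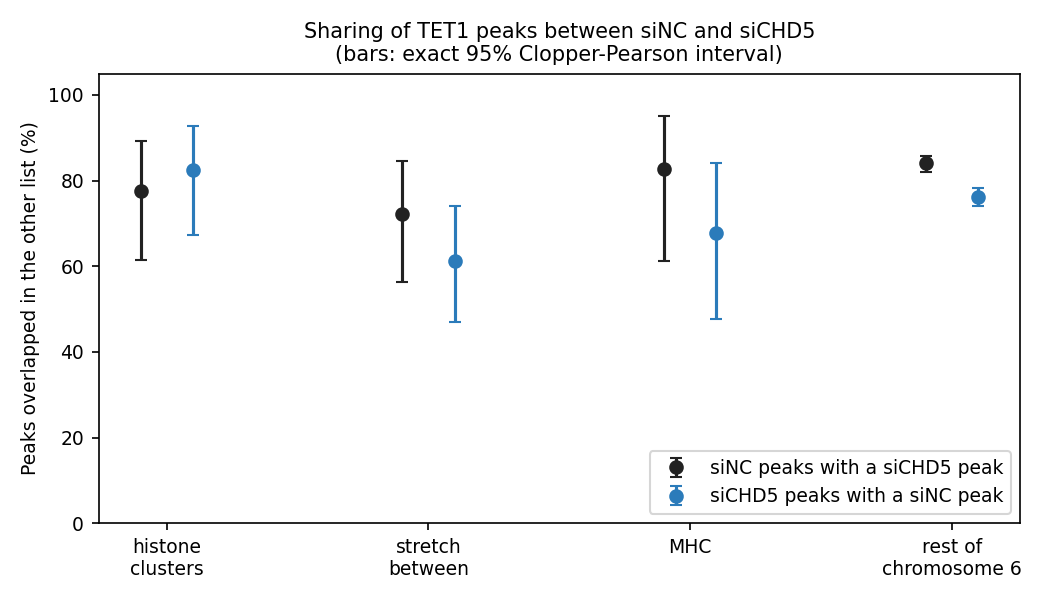
Points give the percentage of peaks in a list overlapped by a peak of the other list for each bin and the rest of chromosome 6, with exact 95% Clopper-Pearson intervals as bars; black is siNC and blue is siCHD5. siNC shares run from 72.1% to 84.0% and siCHD5 shares from 61.1% to 82.5%.

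Peaks without a partner were mostly weak. The strongest siNC peaks without a siCHD5 peak were 31461553 to 31461866 in the MHC (7.72-fold), 28463940 to 28464165 (5.84-fold), 31409500 to 31409728 (5.72-fold), 26021636 to 26021921 (4.80-fold) and 27778003 to 27778778 (4.67-fold, 2 summits). The strongest siCHD5 peaks without a siNC peak were 28651974 to 28652338 (11.0-fold), 26607628 to 26607908 (7.48-fold), 31514504 to 31514702 (6.57-fold), 30796353 to 30796557 (6.05-fold) and 32950299 to 32950543 (5.26-fold), tied with 33247844 to 33248043. The first of these stood about 2 kb from a siCHD5 peak that had a siNC partner, at 28654259 to 28654554. Of these 6 siCHD5 peaks 4 lay in the MHC, at the lowest control value.

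Among the 4 shorter lists, siMBD2 and siMBD3 had 4 peaks in the region, all in the histone clusters, and siCHD3 and siCHD4 had 0. siMBD2 had 4 peaks on chromosome 6, of which 2 lay in the clusters, and siMBD3 had 3, of which 2 did. The stretch between and the MHC held 0 peaks of either list. The siMBD2 peaks were 26285008 to 26285292 (3.93-fold) and 27807389 to 27807581 (4.81-fold). The siMBD3 peaks were 26021209 to 26021403 (4.54-fold) and 26025602 to 26025803 (3.97-fold). None ranked among the first 99 of its list by fold: they stood at 249 and 167 of 358 in siMBD2 and at 100 and 144 of 259 in siMBD3.

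None of these 4 peaks overlapped a siNC peak, where 20.7% of all siMBD2 peaks and 22% of all siMBD3 peaks did. The first siMBD2 and the first siMBD3 peak overlapped a siCHD5 peak (3.03-fold at 26284971 to 26285846 and 3.18-fold at 26021136 to 26021414), where 26.3% of all siMBD2 and 30.1% of all siMBD3 peaks did. The nearest siNC summits were 451 and 26136 bp away for siMBD2 and 474 and 906 bp away for siMBD3. siCHD3 and siCHD4 had 2 and 1 peaks on chromosome 6 and 0 in the region, which allows up to 2.14% and 2.73% of those lists. With so few peaks, a difference between these lists in this region was not detectable.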

How the data were processed

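Peaks are on hg19, and the tools listed in the submitters' processing notes include MACS2 2.1.2, a peak caller, and Bowtie2 2.3.4, an aligner. Not given in the sources used here are their settings and the handling of repeated or multiply matching reads. The 6 deposited peak lists carry replicates 1 to 3 in their names. Each deposited peak carries a fold, the ratio of its pull-down to its local control. The authors' caller also wrote, for each summit, −log10 of a p-value and of a q-value, and a deposited score that restates the q-value and was not analysed. Coordinates count from 1.

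Peaks were binned by summit, and each summit counted as a peak unless distinct intervals are named. Overlap meant at least 1 bp. Pileup and control were recovered from fold and −log10 p with a pseudocount of 1 and a tolerance of 0.02, for 99.98% of siNC and siCHD5 peaks. A control within 0.01 reads of the list's minimum counted as lowest. Intervals are exact 95% Poisson or Clopper-Pearson intervals and, for medians, order-statistic intervals (Python 3.11.15, scipy 1.17.1). The class windows of the MHC (1.9 Mb, 0.7 Mb and the remainder) and the boundary genes for the gene counts came from general knowledge. Procedures were tested on simulated data.

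Named peaks are the 5 of highest fold per bin and list, the 5 highest without a partner, the 3 widest and all peaks of the shorter lists. The region, its bins and these rules were chosen with earlier results of these data known. The further siCHD5 peak of class III, the siNC peaks at 29.6 to 31 Mb, and peaks named for their control were named after their values were seen. Read totals per library were not analysed here.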

Additional observations from a re-analysis of the deposited data

How the results depend on the processing

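Of 93 alternative values, 63 stayed within the 95% interval of the main value or, for a count, within 1.5 times it. Under a −log10 q of 10 or more, the density ratio to the rest of chromosome 6 was 3.18 (siNC) and 4.50 (siCHD5) in the histone clusters and turned to 0.933 and 0.967 in the stretch between. Under a fold of 4 or more it was 5.75 in the siNC clusters and 1.13 in the siCHD5 stretch between. Against 2 Mb on either side, chosen after seeing the data, it was 4.78 and 4.27 in the clusters, 0.361 and 0.393 in the MHC, and turned to 0.828 and 0.929 in the stretch between. Every MHC ratio stayed under 1 and every histone ratio over 3 in the alternatives run. The lowest histone ratio, 3.18 in siNC, rested on 11 peaks and had an interval of 1.58 to 5.72. The interval of the MHC ratio reached 1.06 in siNC and 1.10 in siCHD5 at a fold of 4 or more. For distinct intervals it reached 1.03 in siCHD5. Median width at a fold of 4 or more was 478.5 bp in the siNC clusters and 303 bp on the rest in both lists. The siNC share with a siCHD5 partner in the clusters was 60% (overlap of at least 50% of both peaks), 57.5% (summits within 100 bp) and 100% (−log10 q of 10 or more), and 85.0% in the stretch between at that q. On the rest it was 81.7% (50% overlap), 82.7% (summits), 89.0% (fold) and 93.3% (q). The siCHD5 share with a siNC partner in the clusters was 60% (50% overlap), 57.5% (summits) and 61.1% (q), and 80.6% in the stretch between at a fold of 4 or more. On the rest it was 74.1% (50% overlap), 74.9% (summits), 80.3% (fold) and 80.8% (q). The shorter lists kept 2 of 4 peaks at a fold of 4 or more. A stricter threshold leaves fewer and stronger peaks; the cause of the other shifts was not tested. No paired analysis was possible because each list pools its replicates, and leaving out replicates was not run for the same reason. With 23 to 54 peaks in a bin, only large differences exceed counting error.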

Other observations

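A single stretch of 1416 kb without a peak spans the end of the olfactory receptor stretch and the start of the MHC in both lists. It ran from 28654609 to 30070923 in siNC and from 28654554 to 30070877 in siCHD5, and it was the stretch of rank 3 on chromosome 6 in each list, where the median distance between neighbouring intervals was 53.6 and 48.3 kb. In siNC the next in the region were 751 kb across class III and 684 kb in class I. In siCHD5 the class III stretch measured 608 kb, and the class I stretch was broken by the peak at 30796353 to 30796557, which leaves 375 kb before it.

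A pair of neighbouring class I sites had folds in opposite order in the 2 lists. At 31334743 to 31334998 siNC had 4.03-fold with 35 pull-down and 7.92 control reads, and siCHD5 had 9.62-fold with 47 and 3.99 reads. At 31341903 to 31342247 siNC had 8.78-fold with 38 and 3.44 reads, and siCHD5 had 5.97-fold with 42 and 6.20 reads. With 1 list per group the differences between the lists were not tested.

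Some summits at the lowest control value lay before the MHC. Both siNC summits of the interval at 28510251 to 28510887 stood at it (2.5 reads), and they were the only such siNC summits in the stretch between. In siCHD5 3 of the 4 such summits of that stretch lay at 28510341 to 28511038 and 28654259 to 28654554. The other lay at 27218961 to 27219190, before the second histone cluster. Elsewhere on chromosome 6 the 88 siNC summits at the lowest control had a median pileup of 26 reads and a median width of 296 bp, against 22 reads and 250.5 bp for the 16 in the MHC.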
